A study of Mus musculus with 6 samples.

Results

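The miR-200 family and the miR-183 cluster were followed in hippocampal small RNA of adult mice. The members were all mature miRNA rows named miR-200a, miR-200b, miR-200c, miR-141, miR-429, miR-96, miR-182 or miR-183, with both arms of each hairpin. This gave 16 rows from 8 hairpins, of 2035 mature miRNA rows and 109108 features in each file. All mice were males of the C57BL/6 strain, aged 3 months, homozygous for floxed Dicer1 (Dicer1 flox/flox), and all were killed 3 weeks after tamoxifen. The 3 libraries called WT came from mice without a recombinase. The 3 libraries called Dicer1-ifKO came from mice that also carried CaMKIIa-creERT2, a tamoxifen-inducible recombinase driven by a promoter of excitatory forebrain neurons, so that cells in which this promoter is inactive keep Dicer1. Each library pooled equal RNA amounts of 3 mice, and p-values measure the spread between such pools.

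miRNAs are cut from hairpins by Dicer1 and find their targets mainly through the seed, bases 2 to 8 of the mature strand. The miR-200 family is best known from epithelial cells, where it represses the transcription factors Zeb1 and Zeb2, which in turn repress the family. It is also known from the olfactory system and the pituitary. The miR-183 cluster is known from sensory cells of the retina, the inner ear and dorsal root ganglia, and a seed mutation of miR-96 causes hearing loss.

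The mature sequences below are from RefSeq (GRCm38.p6), in which all 16 rows were found at the positions given in the files. The lead arm of each hairpin is shown 5′ to 3′ with the seed in capitals, because the seed divides the miR-200 family in a different way from its position in the genome. The chromosome 4 cluster (chromosome 4, 156053905 to 156055750, minus strand) holds miR-200b, miR-200a and miR-429, and the chromosome 6 cluster (chromosome 6, 124717914 to 124718390, minus strand) holds miR-200c and miR-141. The miR-183 cluster (chromosome 6, 30165918 to 30169737, minus strand) holds miR-183, miR-96 and miR-182.
miR-200b-3p: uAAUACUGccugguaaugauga
miR-429-3p: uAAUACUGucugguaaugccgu
miR-200c-3p: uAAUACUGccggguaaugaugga
miR-200a-3p: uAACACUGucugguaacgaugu
miR-141-3p: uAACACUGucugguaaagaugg
miR-96-5p: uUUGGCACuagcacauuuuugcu
miR-182-5p: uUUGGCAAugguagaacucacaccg
miR-183-5p: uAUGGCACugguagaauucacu

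The 8 lead arms carry 5 different seeds. miR-200b-3p, miR-429-3p and miR-200c-3p share 1 seed, and miR-200a-3p and miR-141-3p share another, which differs from it by U4C (positions counted from 1 at the 5′ end). Each of these seed groups therefore has members in both miR-200 clusters. The miR-183 cluster has 3 seeds: from miR-96-5p to miR-182-5p the seed differs by C8A, and from miR-96-5p to miR-183-5p by U2A. Over 22 bases, miR-200b-3p and miR-200c-3p differ at 2 positions (U11G and A22G), as do miR-200a-3p and miR-141-3p (C17A and U22G). How the authors treated reads with mismatches is not given in the sources used here, so reads may have passed between these pairs.

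In GENCODE M21 (GRCm38) the 3 hairpins of the chromosome 4 cluster lie in an intron of Ttll10, a tubulin ligase-like gene, and within the noncoding transcript Gm13648 on the same strand. miR-429 overlaps an exon of Gm13648, and miR-200a and miR-200b lie in its introns. The Ttll10 span of 17041 nt held 1048 counts over all libraries, and in each library its count was the sum of the miRNA rows inside it. miR-141 and miR-200c lie in an intron of the antisense RNA Gm15884, whose span held 73 counts against 69 in the miRNA rows. miR-141-3p also overlaps an exon of Gm29008, an unclassified transcript on the same strand. No gene other than the miRNA genes themselves was annotated over the mature rows of the miR-183 cluster, and the stretches between them were not examined. No other miRNA row overlapped a member.

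The summed feature counts were 55101387 to 77428956 per library, and 1 read can add to several overlapping features, so the number of reads behind them is unknown. miRNA rows held 2318205 to 3179363 counts per library. Of these, the members held 198 to 791 counts, or 76.5 to 290.3 per 1000000 miRNA counts. Neuronal markers (5 miRNAs, among them miR-124-3p and miR-9-5p) summed to 3060 to 3921 CPM in the WT libraries and 2543 to 3224 CPM in the Dicer1-ifKO libraries, where CPM is counts per 1000000 over the tested features after TMM scaling. These 5 names cover 12 rows, because a strand encoded at several loci has a row for each. The same read may thus be counted more than once in this sum. WT replicate 1 stood apart, with 0.108% of its summed counts in 266 rows of 5S and 5.8S rRNA, against 0.0348% to 0.0606% in the other libraries. It also held the most member counts.

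The members were rare in hippocampus, and a few strands made up nearly all of them. The chromosome 4 cluster held 1048 counts, the chromosome 6 miR-200 cluster 69 and the miR-183 cluster 1226. These are 44.7%, 2.94% and 52.3% of all member counts. WT replicate 1 gave 534 of the 1226 counts, against 231 on chromosome 4. Apart from it, the miR-183 cluster was the larger only in Dicer1-ifKO replicate 3 (121 against 72 counts). In all other libraries the chromosome 4 cluster was the larger, so the order of the sums is not that of most libraries. miR-182-5p alone gave 91.9% of the miR-183 cluster, and miR-200b-3p gave 48.1% of the chromosome 4 cluster. The highest member, miR-182-5p, ranked 266 among the miRNA rows by mean CPM, and miR-200b-3p ranked 344, miR-429-3p 385, miR-200a-3p 421, miR-183-5p 502 and miR-141-3p 542. Of the 16 rows, 12 had at least 1 count and 6 had enough for the test. The order between members is one of read counts over mature strands of nearly equal length.

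**Figure D1:**
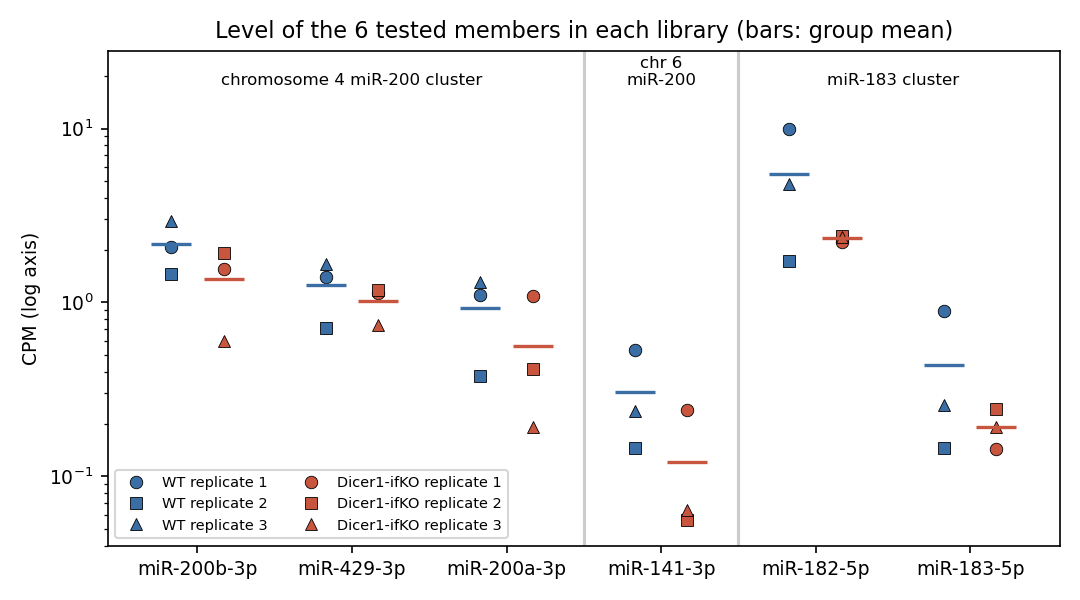
CPM on a log axis of the 6 tested members in each of the 6 libraries, with circles, squares and triangles for replicates 1, 2 and 3 and bars for the mean of 3 libraries. For every member the points of WT and Dicer1-ifKO overlap, and WT replicate 1 is the highest library for miR-182-5p, miR-183-5p and miR-141-3p.

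In the chromosome 4 cluster, miR-200b-3p stood at 2.08, 1.46 and 2.93 CPM for replicates 1, 2 and 3 of WT, and at 1.57, 1.94 and 0.597 CPM for those of Dicer1-ifKO. Dicer1-ifKO replicate 3 was the lowest library, and the other 2 Dicer1-ifKO libraries lay within the WT range. miR-429-3p, which carries the same seed, stood at 1.41, 0.711 and 1.66 CPM in WT and at 1.13, 1.18 and 0.746 CPM in Dicer1-ifKO, in the same order of replicates. All 3 Dicer1-ifKO values of miR-429-3p lay within the WT range. miR-200a-3p, of the other miR-200 seed, stood at 1.1, 0.377 and 1.31 CPM in WT and at 1.09, 0.414 and 0.192 CPM in Dicer1-ifKO. WT replicate 2 and Dicer1-ifKO replicates 2 and 3 were low, and Dicer1-ifKO replicate 1 was level with WT replicate 1.

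In the chromosome 6 miR-200 cluster, miR-141-3p was the main product, with 60 of 69 counts. Its counts were 26, 7 and 11 among the WT libraries and 10, 3 and 3 among the Dicer1-ifKO libraries, each in the order of replicates, or 0.531, 0.146 and 0.237 CPM against 0.241, 0.0564 and 0.0640 CPM. Dicer1-ifKO replicate 1 lay within the WT range and the other 2 Dicer1-ifKO libraries below it. miR-200c-3p had 7 counts in all, at most 2 in any library, and 0 in WT replicate 1 and Dicer1-ifKO replicate 2, so each value was under the limit of 3 counts (0.0564 to 0.0724 CPM) that a count of 0 allows. It did not reach the count filter of the test.

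In the miR-183 cluster, miR-182-5p stood at 9.97, 1.74 and 4.81 CPM in WT replicates 1, 2 and 3, and at 2.22, 2.43 and 2.39 CPM in Dicer1-ifKO. The Dicer1-ifKO libraries lay close together, above WT replicate 2 and below the other 2 WT libraries. WT replicate 1 held 179 counts of miR-182-5p per 1000000 miRNA counts (exact 95% interval 164 to 196) and WT replicate 2 held 28.7 (22.9 to 35.6). These Clopper-Pearson intervals cover counting error only, since PCR copies are not independent molecules. miR-183-5p had 44, 7 and 12 counts in WT and 6, 13 and 9 in Dicer1-ifKO, or 0.899, 0.146 and 0.259 CPM against 0.145, 0.244 and 0.192 CPM, with WT replicate 1 above all other libraries. miR-96-5p, the member tied to hearing, had 7 counts in all, of which 4 were in WT replicate 3.

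**Figure D2:**
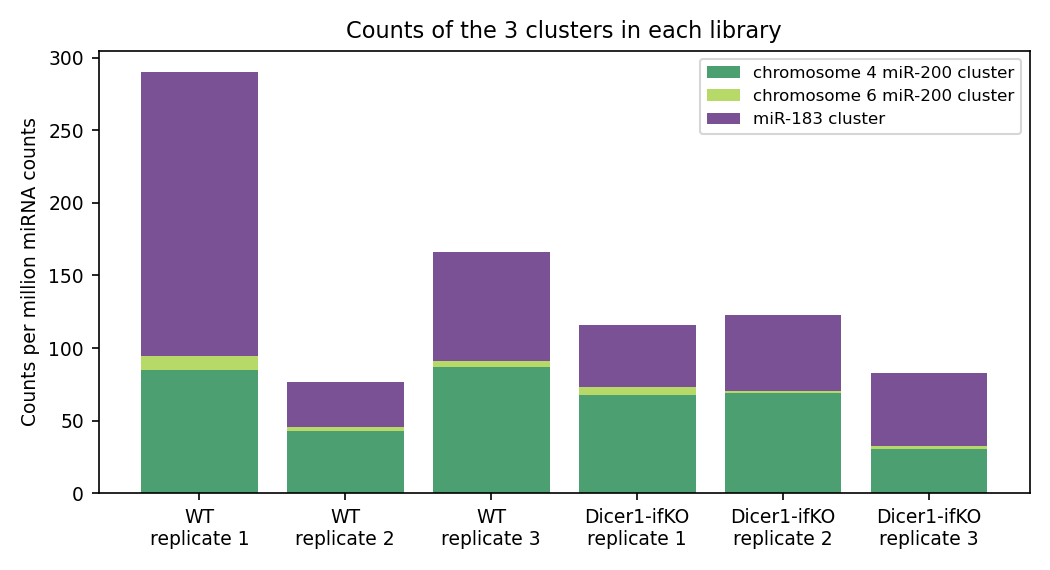
Stacked bars of the counts of the 3 clusters per 1000000 miRNA counts in each library. The miR-183 cluster reaches 196 in WT replicate 1 and lies between 31.1 and 75.2 in the other 5 libraries, while the chromosome 4 miR-200 cluster lies between 30.2 and 86.8.

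The comparison of the genotypes asks how these miRNAs changed after Dicer1 was inactivated in excitatory neurons. None of the 6 tested members passed, with 0 called lower and 0 called higher (edgeR quasi-likelihood test, two-sided, Benjamini-Hochberg over 6539 features, adjusted p of 0.05), and 0 had an unadjusted p under 0.05, which 6.47% of all features and 31.1% of the tested miRNA rows had on the lower side. In the same fit 0.795% of all features and 6.59% of the 546 tested miRNA rows were called lower, and 0.0153% of all features and 0% of the miRNA rows higher. These shares rest on single libraries: of the miRNA rows, 36 were called lower with all libraries, but 70, 13 and 14 without WT replicates 1, 2 and 3, and 19, 1 and 8 without Dicer1-ifKO replicates 1, 2 and 3. Fitted alone, 36 of 550 miRNA rows were called lower and 11 higher, so the lack of higher miRNA rows holds for the fit of all features. All 6 members had log2 changes below 0, as had 75.5% of the tested miRNA rows and 56.8% of all features, and the median was -0.95 over the members against -0.24 over the miRNA rows and -0.05 over all features. In 0 of the 6 did the CPM values of the groups lie apart, while 33.9% of the tested miRNA rows were lower without overlap and 2.01% higher, against 9.27% and 3.73% of all features. The 10 members that did not reach the count filter are not part of these counts, and miR-141-3p and miR-183-5p reached it with at least 10 counts in 2 WT libraries and 1 Dicer1-ifKO library.

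The changes (Dicer1-ifKO minus WT, log2 CPM, ± SE, n = 3 each) were small for the 3 products of chromosome 4 relative to their errors. They were -0.65 ± 0.46 for miR-200b-3p, -0.30 ± 0.31 for miR-429-3p and -0.75 ± 0.76 for miR-200a-3p, with edgeR adjusted p of 0.90, 0.93 and 0.94. The mean level of miR-200b-3p was 2.16 ± 0.74 CPM for WT against 1.37 ± 0.69 CPM for Dicer1-ifKO (SD, n = 3 each). miR-141-3p had -1.41 ± 0.65 (edgeR adjusted p = 0.67, the lowest of the members). For the miR-183 cluster, miR-182-5p had -1.23 ± 0.66 (edgeR adjusted p = 0.81), with means of 5.51 ± 4.16 CPM (WT) and 2.34 ± 0.11 CPM (Dicer1-ifKO; SD, n = 3 each), and miR-183-5p had -1.14 ± 0.74 (edgeR adjusted p = 0.87). With errors of this size the comparison does not show that the levels were equal. Summed over each cluster, CPM was 4.41 ± 1.71 (WT) and 2.96 ± 1.24 (Dicer1-ifKO) for miR-200 on chromosome 4, 0.326 ± 0.186 and 0.165 ± 0.130 for miR-200 on chromosome 6, and 5.98 ± 4.57 and 2.55 ± 0.17 for the miR-183 cluster (SD, n = 3 each, no test). Without WT replicate 1 the WT mean of the miR-183 cluster was 3.47 CPM, and without Dicer1-ifKO replicate 1 the Dicer1-ifKO mean of the chromosome 6 cluster was 0.0898 CPM. In whole tissue, fewer cells of a type and less RNA per cell cannot be told apart.

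**Figure D3:**
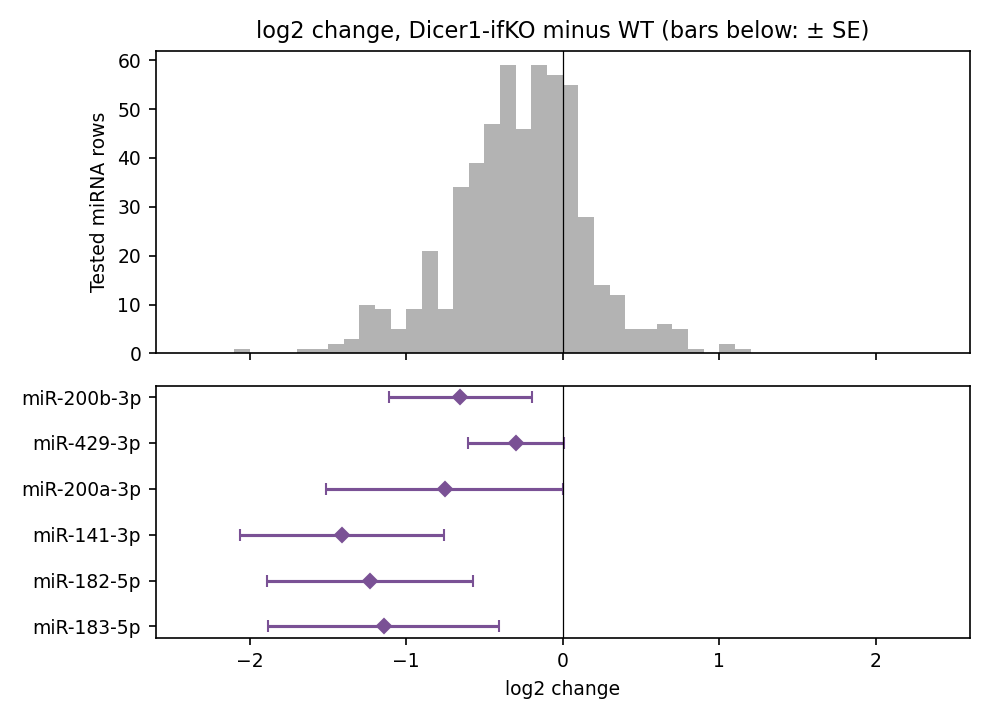
Upper panel, number of tested miRNA rows (546, members included) by log2 change of Dicer1-ifKO minus WT; lower panel, log2 change of the 6 tested members with bars of ± SE. All 6 members lie below 0, from -0.30 to -1.41, with errors of 0.31 to 0.76.

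Single WT libraries set the size of the miR-183 cluster changes. Without WT replicate 1, miR-182-5p had a log2 change of -0.48 (edgeR adjusted p = 0.80) and miR-183-5p of -0.04 (edgeR adjusted p = 0.99). Without WT replicate 2, the WT library with the least miR-182-5p, the change was -1.63 and miR-182-5p was called lower (edgeR adjusted p = 0.014), in a fit that called 0.219% of 7314 features and 2.31% of 562 miRNA rows lower. This was the only call of any member when libraries were left out in turn. miR-200a-3p ran from -0.34 without Dicer1-ifKO replicate 3 to -1.60 without Dicer1-ifKO replicate 1, and miR-141-3p from -0.74 without WT replicate 1 to -2.31 without Dicer1-ifKO replicate 1. miR-429-3p ran from -0.01 without WT replicate 3 to -0.57 without WT replicate 2, and miR-200b-3p from -0.30 without Dicer1-ifKO replicate 3 to -0.98 without Dicer1-ifKO replicate 2. The part of the rRNA share of WT replicate 1 in these values was not tested.

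**Figure D4:**
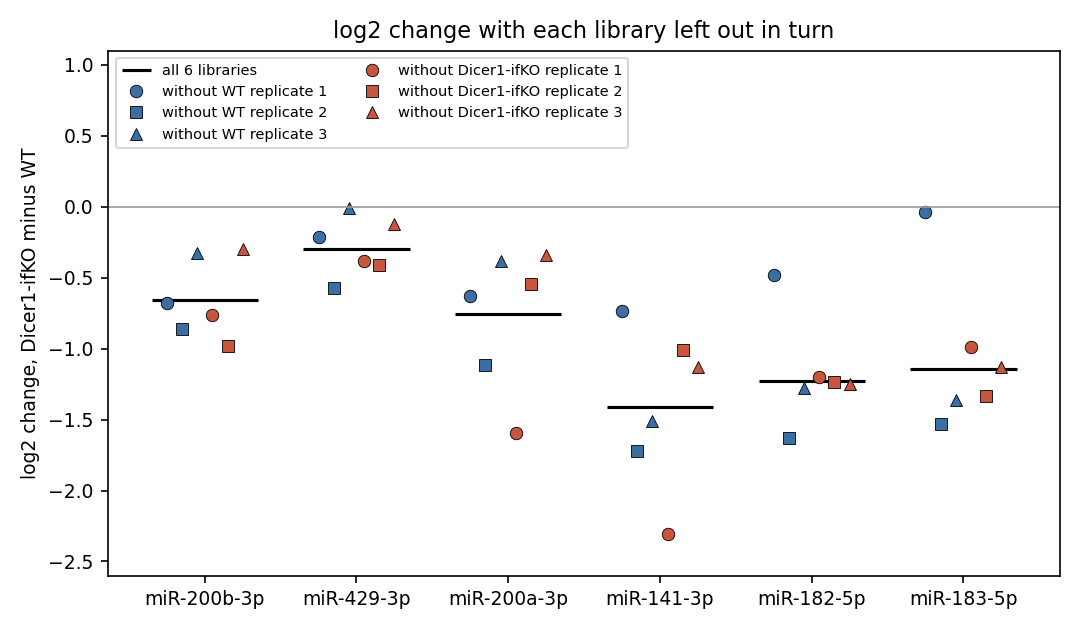
log2 change of Dicer1-ifKO minus WT for the 6 tested members with all 6 libraries (black bars) and with each library left out in turn (blue for WT, red for Dicer1-ifKO). Without WT replicate 1, miR-183-5p lies at -0.04 and miR-182-5p at -0.48.

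The members varied between libraries of 1 genotype more than most miRNAs did. The within-genotype SD of log2 CPM (0.1 CPM added) was 0.94 for miR-200a-3p and 0.87 for miR-182-5p, which rank 1 and 2 among the 546 tested miRNA rows, whose median was 0.23. It was 0.76 for miR-183-5p (rank 5), 0.67 for miR-200b-3p (rank 12), 0.66 for miR-141-3p (rank 13) and 0.48 for miR-429-3p (rank 36). Among 115 other rows within 2-fold of its level, 0 had a higher SD than miR-182-5p, and among 126 such rows 1 had a higher SD than miR-200b-3p. Counting error alone would give an SD of about 0.13 for miR-182-5p, 0.31 for miR-200a-3p, 0.18 for miR-200b-3p and 0.21 for miR-429-3p, all smaller than observed. It would also give 0.46 for miR-183-5p, against 0.76 observed. For miR-141-3p it would give 0.60 against 0.66 observed, but these values are on different scales. Adding 0.1 CPM lowers the observed SD at such low levels, and the counting value has no such addition. Scaled to the miRNA counts of each library instead of CPM, the observed SD of miR-141-3p was 1.02, above the counting value.

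These ranks moved with the libraries and the scale. miR-200a-3p ranked between 1 and 13 with 1 CPM added, per 1000000 miRNA counts, or with any library left out. miR-182-5p ranked between 1 and 6 except without WT replicate 1 (rank 21) and without WT replicate 2 (rank 62). miR-200b-3p ranked 84 without Dicer1-ifKO replicate 3, and miR-429-3p ranked 193 without WT replicate 2. miR-183-5p ranked 171 without WT replicate 1 and 73 with 1 CPM added, and miR-141-3p ranked 221 with 1 CPM added.

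**Figure D5:**
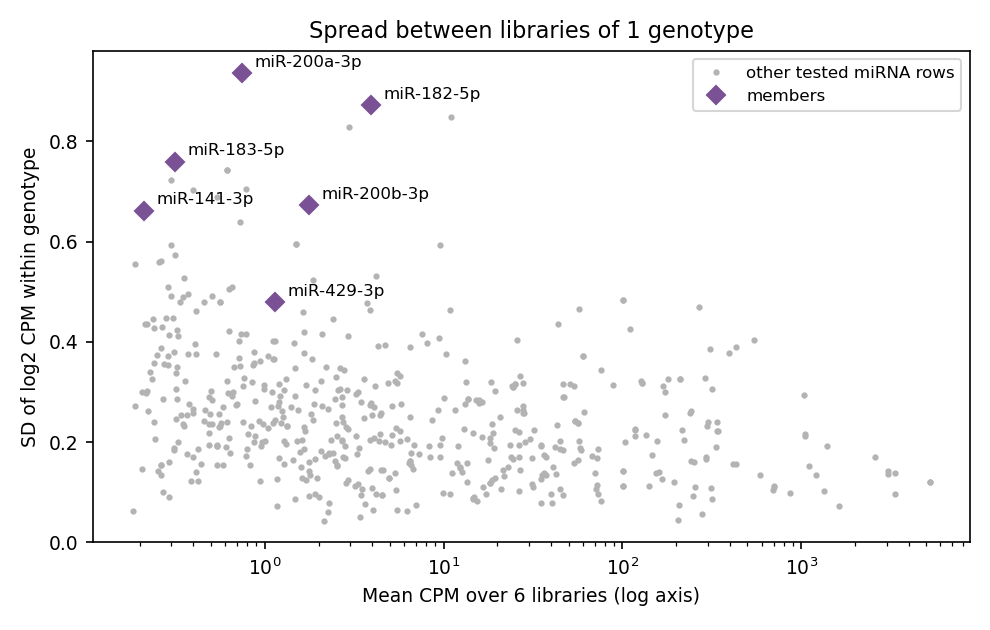
SD of log2 CPM within genotype against mean CPM over 6 libraries (log axis) for 546 tested miRNA rows, with the 6 members as diamonds. miR-200a-3p at 0.94 and miR-182-5p at 0.87 lie above all or all but 1 of the other rows, and miR-429-3p at 0.48 lies lowest of the members.

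Within the miR-183 cluster, the proportion of its main products could not be told apart between libraries at this depth. The ratio of miR-182-5p to miR-183-5p counts was 11.1, 11.9 and 18.6 in WT and 15.3, 9.92 and 12.4 in Dicer1-ifKO, and the exact 95% intervals of all 6 libraries share values (10.4 to 15.5). With 6 to 13 counts of miR-183-5p in 5 of the libraries these intervals are wide, such as 6.78 to 42.9 in Dicer1-ifKO replicate 1, and they do not show that the proportion was constant. Over the same libraries the summed CPM of the cluster differed 5.80-fold between the highest and the lowest. On chromosome 4, the ratio of miR-200b-3p to miR-429-3p, of the same seed, lay between 1.38 and 2.06 in 5 libraries and was 0.800 (0.469 to 1.354) in Dicer1-ifKO replicate 3. This interval met those of all 5 other libraries, though barely that of WT replicate 2 (1.348 to 3.199). The ratio of miR-200b-3p to miR-200a-3p ranged from 1.44 (0.973 to 2.16) in Dicer1-ifKO replicate 1 to 4.68 (2.93 to 7.79) in Dicer1-ifKO replicate 2, intervals that do not meet. These are the lowest and the highest of the 6 libraries, and the intervals take each read as a separate molecule, which PCR copies are not. Only on that reading did miR-200a-3p vary against its neighbour from the same cluster by more than counting error.

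Between the clusters, proportions differed among libraries of 1 genotype. miR-182-5p over miR-200b-3p was 4.78, 1.19 and 1.64 in WT and 1.42, 1.25 and 4.0 in Dicer1-ifKO, so that 1 library of each genotype was high. Its log2 difference of -0.13 between the genotypes did not pass a two-sided exact permutation test (p = 0.7, adjusted p = 0.9 over 3 ratios, where 3 against 3 libraries cannot go below 0.1). miR-141-3p over miR-200b-3p, the lead products of the miR-200 clusters, differed by -0.70 (exact permutation p = 0.6, adjusted p = 0.9), and miR-200a-3p over miR-200b-3p by -0.12 (exact permutation p = 0.9, adjusted p = 0.9). The miR-183 cluster took 67.5%, 40.7% and 45.3% of member counts in WT and 36.6%, 42.7% and 61.1% in Dicer1-ifKO.

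Apart from miR-200c and miR-96, which had too few counts to tell, each hairpin gave nearly all its counts from 1 arm. In the miR-200 family this was the 3p arm, with 99.2% of 508 counts for miR-200b (exact 95% interval 98.0 to 99.8), 97.2% of 215 for miR-200a (94.0 to 99.0), 96.8% of 62 for miR-141 and all 325 for miR-429, where the 5p arm at 0 allows up to 0.923%. In the miR-183 cluster it was the 5p arm, with all 1127 counts for miR-182, where the 3p arm at 0 allows up to 0.266%, and 91 of 92 for miR-183. miR-200c had 7 counts, all 3p, and miR-96 had 7, all 5p, where the other arm at 0 allows up to 42.9%. The minor arms miR-200a-5p, miR-200b-5p, miR-141-5p and miR-183-3p had 6, 4, 2 and 1 counts in all, and miR-429-5p, miR-200c-5p, miR-182-3p and miR-96-3p had 0. The difference between the genotypes in the share of the 3p arm did not pass a two-sided exact permutation test for miR-200a (p = 0.2) or miR-200b (p = 0.4), each with an adjusted p of 0.8 over the 4 hairpins with at least 100 counts. For miR-429 and miR-182, the other hairpins of these 4, the share was identical in all 6 libraries, so there was nothing to test. The smallest p this design allows is 0.1.

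Other miRNAs known from epithelial, ciliated and choroid plexus cells lay on both sides of 0. Of 14 listed miRNAs, 10 were tested, 0 were called lower and 0 higher by edgeR, 1 had an unadjusted p under 0.05, and 4 of 10 lay below 0, with a median log2 change of 0.08. The median over all tested miRNA rows was -0.24. All arms of miR-34b and miR-34c lay above 0, while miR-204-5p, the 1 with an unadjusted edgeR p under 0.05, was lowest at -0.56. miR-203-3p, of skin and other surface epithelia, stood at 1.64 ± 0.41 CPM for WT against 1.66 ± 0.05 CPM for Dicer1-ifKO (SD, n = 3 each), with WT replicate 1 (1.45 CPM) within the range of the others. miR-34c-5p, of ciliated cells, stood at 41.2 ± 7.28 and 51.4 ± 13.4 CPM, and miR-375-3p, of endocrine cells, at 13.6 ± 2.19 and 12.9 ± 3.04 CPM. The log2 changes of the rest with at least 10 counts per library on average were 0.33 for miR-34b-5p, 0.16 for miR-34b-3p, 0.23 for miR-34c-3p, -0.02 for miR-211-5p, -0.32 for miR-31-5p and 0.15 for miR-21a-5p.

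The choroid plexus and ependyma markers (5 of 5 found, 0 of them at 0) summed to 355 to 392 CPM over WT libraries and 273 to 285 CPM over Dicer1-ifKO libraries, mostly miR-204-5p, a choroid plexus miRNA also made by other cells. miR-204-5p had a log2 change of -0.56 ± 0.13 (SE), an edgeR adjusted p of 0.067. The other markers of this list did not share its lower level: the log2 change was 0.32 for miR-34c-5p, 0.33 for miR-34b-5p and -0.02 for miR-211-5p. miR-449a-5p, with 19 counts in all, was not tested. The summed markers of WT replicates 1, 2 and 3 were 378, 355 and 392 CPM, of which miR-204-5p gave 336, 319 and 341 CPM. The markers of surface epithelium (2 of 2 found) summed to 1.46 to 2.24 CPM over WT libraries and 1.73 to 1.90 CPM over Dicer1-ifKO libraries. The part of these cell types in the member values was not tested.

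Genes of the pathway were covered only by fragments of their transcripts. Of 9 targets and partners, 4 were tested and 0 were called by edgeR, with 1 at an unadjusted p under 0.05. This was Zeb2, the miR-200 target that is active in brain, with 158, 159 and 154 counts in WT and 99, 106 and 122 in Dicer1-ifKO (log2 -0.50 ± 0.18 SE, edgeR adjusted p = 0.35). Its Dicer1-ifKO libraries lay below the WT libraries in counts, which are not scaled for depth. Of all tested features, 6.47% had an unadjusted edgeR p under 0.05 on the lower side, and 9.27% were lower without overlap in CPM. Small RNA reads over a gene do not measure its mRNA. The other tested genes had log2 changes of -0.06 (Zeb1), -0.40 (Grhl2) and -0.09 (Bach2). The epithelial adhesion genes Cdh1 and Epcam had 5 and 0 counts in all. Of 10 miRNA processing genes 3 were tested and 0 called by edgeR, with 0 at an unadjusted p under 0.05. Dicer1 itself had 45, 33 and 47 counts in WT and 37, 32 and 35 in Dicer1-ifKO (log2 -0.24 ± 0.24 SE), and such reads do not resolve the floxed exon, so they check no genotype label.

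The miRNA rows most like the members were sought among 389 other rows whose counts averaged 50 or more over the libraries, by the root mean square difference of centred log2 CPM over the 6 libraries. For the summed miR-200 rows they were miR-184-3p (0.30), miR-148b-5p (0.33) and miR-551b-3p (0.40), where the median row had 0.57. miR-184-3p stood at 3.56, 1.8 and 3.75 CPM in WT and at 2.22, 1.71 and 1.49 CPM in Dicer1-ifKO. For the summed miR-183 cluster rows they were miR-184-3p (0.53), miR-6236 (0.56) and miR-382-5p (0.61), where the median row had 0.85. miR-6236 stood at 28.5 CPM in WT replicate 1 and between 6.16 and 8.50 CPM in the other 5 libraries.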

How the data were processed

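Small RNA libraries (TruSeq) were sequenced from total RNA, per the labels' protocols. The design text gives 12 mice per genotype, while 3 pools of 3 make 9. Each file held raw counts per feature, deposited by the authors without scaling, and a normalized signal, in which the authors' values equal the counts times 1 constant per library, used here only as an alternative scaling. Per the submitters' processing notes, BWA, DESeq2, SAMtools 0.1.18 and CASAVA 1.8.2 were used, with builds mm10 and GRCm38. For the counter and its handling of strand, mismatches and multiple alignments, the sources used here give nothing.

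Groups and replicates came from the sample titles. Overlapping rows of 1 gene with identical counts were counted once (13046 rows dropped). edgeR 4.0.16 (R 4.3.3) was run on all features: filterByExpr by group (minimum count 10), TMM, estimateDisp and glmQLFit with robust estimation, glmQLFTest, Benjamini-Hochberg over 6539 features, threshold 0.05. The SE was derived from the F statistic. The fit was tested on simulated data. The simulation gave all features the same variability between libraries and changed only features with higher counts. It does not cover rows as rare or as variable as the members. DESeq2 1.42.0, other scalings and filters, a replicate block and leaving out libraries were alternatives.

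The members, lists and tests were chosen with earlier results of these data known. All rows matching the member names were named, and outside them the 3 most similar miRNA rows per profile and listed epithelial and ependymal miRNAs with at least 10 counts per library on average. The ratios, the spread measure, the rRNA share, and the members of the gene lists singled out were chosen after the values were seen. Argonaute genes were matched by older symbols. Marker lists of other cell types gave, in summed CPM, 147.7 to 181 in WT and 188 to 206 in Dicer1-ifKO for microglia and leukocytes, 235 to 399.8 and 305 to 375 for vessels (miR-143-3p alone, since 1 of 3 names matched), 109 to 120.1 and 97.2 to 116 for erythrocytes, 199 to 318 and 238 to 326 for oligodendrocytes, and 12.0 to 16.1 and 10.8 to 16.4 for pituitary and endocrine cells, with 0 rows called by edgeR in any of them.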

Additional observations from a re-analysis of the deposited data

How the results depend on the processing

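The 6 tested members were refitted under 16 alternatives, 6 of which left out 1 library. In all 95 values obtained (miR-141-3p missed the count filter when the miRNA rows were fitted alone) the log2 change lay below 0, and in 94 it was not called. The exception was miR-182-5p without WT replicate 2, and its log2 change ran from -1.63 to -0.48 when libraries were left out in turn, so that the number of members called lower was 0 to 1, where 2.31% of the miRNA rows were called lower without WT replicate 2. The number of members called higher was 0 throughout (edgeR and DESeq2). With TMM factors taken from miRNA rows alone, which moved the median of these rows from -0.24 to 0.0014, miR-429-3p had -0.04, miR-200b-3p -0.39 and miR-182-5p -1.02, and the summed miR-183 cluster in Dicer1-ifKO was 2.79 CPM instead of 2.55 CPM, since each library was divided by another factor. Whether equal replicate numbers mark pairs is not given in the sources used here. Over the miRNA rows the deviations of same-numbered libraries correlated at -0.05, 0.26 and -0.26, and those of differently numbered libraries at -0.37 to 0.43. With 3 libraries per group such values cannot decide it. With the replicate number as a block, 0 members were called lower or higher, and the log2 change was -0.92 for miR-182-5p and -1.35 for miR-141-3p (edgeR adjusted p = 0.93 and 0.37), while 3 miRNA rows were called lower instead of 36, against 8 with TMM factors from miRNA rows. At 1 to 7 counts in all, miR-200a-5p, miR-200b-5p, miR-200c-3p, miR-141-5p, miR-96-5p and miR-183-3p were below what this depth can compare, and 4 other rows had 0 counts.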

Other observations

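The libraries with the most 5S and 5.8S rRNA counts were also those with the highest proportion of miR-182-5p to miR-200b-3p, a pattern noticed after the values were seen. WT replicate 1 had 0.108% of its summed counts in these rRNA rows and a ratio of 4.78. Dicer1-ifKO replicate 3 had 0.0606% and a ratio of 4.0. In the other 4 libraries the rRNA share was 0.0348% to 0.0545% and the ratio 1.19 to 1.64. In WT replicate 1 miR-182-5p was the highest of all libraries, whereas in Dicer1-ifKO replicate 3 miR-200b-3p was the lowest. The part of the rRNA share in these ratios was not tested.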
